A study of Mus musculus with 2 samples.

Results

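Purine nucleotides that leave dying cells or arrive with food are taken apart at the surface of the intestinal villus, and the products are carried into the enterocyte. Nt5e (the ectoenzyme CD73) makes adenosine from AMP, and Enpp3 is an ectoenzyme that splits nucleotides. Slc28a2 and Slc28a3 import nucleosides together with sodium, and Slc29a1 lets nucleosides pass along their gradient. Ada turns adenosine into inosine, Pnp splits inosine and guanosine into base and sugar phosphate, and Xdh oxidises hypoxanthine and xanthine to urate. Adenosine is also a signal between epithelial and immune cells, so the amounts of Nt5e and Ada matter for the lymphocytes that sit between enterocytes.

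These 8 genes, chosen by name and with earlier results of these data known, were described in single-cell libraries of small intestinal epithelium that list 55357 genes. Each genotype, adip fl/fl or adip fl/fl-Villi-Cre, was represented by 1 library. All animals carried loxP-flanked alleles of the adiponectin gene, and those of the second group also carried Cre recombinase driven by the villin promoter, which is active in epithelial cells of crypt and villus and not in the T cells of the same preparation. The study describes 8-week-old male mice pooled for sequencing and a preparation enriched for crypts. With 1 library per genotype nothing below was tested between genotypes, and every interval is a 95% interval for counting error only. Adipoq, the targeted gene, had 1 UMI (unique molecular identifier, a count of 1 transcript molecule) over all barcodes of the adip fl/fl library and 0 UMIs in the other, so it checks neither label.

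The libraries held 9791 and 11838 barcodes with 42150623 and 63370798 UMIs. Here and below the adip fl/fl library comes first and the adip fl/fl-Villi-Cre library second, unless a sentence says otherwise. Barcodes with more than 500 detected genes and under 25% mitochondrial UMIs were kept, which left 3069 (31.3%) and 5555 (46.9%) with medians of 4838 and 4749 UMIs. The study's text gives more cells after its filter in both libraries. The kept barcodes of the libraries shared 3 barcode sequences. A level is the UMIs of a gene summed over the barcodes of a cluster or class and scaled to 1000000 UMIs (CPM); UMIs from the 3′ end do not grow with transcript length. Absorptive clusters were placed along the villus by markers other than the 8 genes: 226 and 439 barcodes were villus bottom-like, 467 and 947 mid-villus-like, 434 and 549 lay between mid-villus and tip, and 875 and 2043 were villus tip-like. These 4 classes together are called absorptive. The tip-like class consisted of 3 clusters, which carried 6 (cluster 0), 8 (cluster 1) and 10 (cluster 3) of 12 villus tip markers such as Apoa4, Klf4 and Egfr, and at most 2 of 12 mid-villus markers.

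Promoter sequences of the 2 genes that climbed most steeply among those whose window lay outside the transcribed part, and of the transporter with the opposite pattern, are shown because their make-up differed. Each is the 250 bases before the transcription start in RefSeq (GRCm38.p6), read 5′ to 3′ on the strand of the gene, with matches to 3 short motifs on either strand in capitals. The letters CACCC stood for the KLF family. The intestinal factor CDX2 was searched as TTTATG. For the zinc finger factors of the GATA family the search used the letters AGATAA, and no match overlapped another in the windows printed. The Ada window lies at chr2:163750240-163750489 on the minus strand, the Slc28a2 window at chr2:122426185-122426434 on the plus strand and the Slc28a3 window at chr13:58610878-58611127 on the minus strand.
Ada: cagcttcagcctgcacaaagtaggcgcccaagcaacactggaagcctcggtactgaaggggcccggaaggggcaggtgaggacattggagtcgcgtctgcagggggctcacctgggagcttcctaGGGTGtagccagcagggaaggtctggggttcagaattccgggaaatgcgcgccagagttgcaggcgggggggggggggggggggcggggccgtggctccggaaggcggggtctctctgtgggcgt
Slc28a2: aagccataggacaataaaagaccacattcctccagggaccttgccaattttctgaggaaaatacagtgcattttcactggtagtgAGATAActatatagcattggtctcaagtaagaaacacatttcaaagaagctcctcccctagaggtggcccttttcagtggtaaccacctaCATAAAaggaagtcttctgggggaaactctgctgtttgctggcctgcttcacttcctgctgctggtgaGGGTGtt
Slc28a3: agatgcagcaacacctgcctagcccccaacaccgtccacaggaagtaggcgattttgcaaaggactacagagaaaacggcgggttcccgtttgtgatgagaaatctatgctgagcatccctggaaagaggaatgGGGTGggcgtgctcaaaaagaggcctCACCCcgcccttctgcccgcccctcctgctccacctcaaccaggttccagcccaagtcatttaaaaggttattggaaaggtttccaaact
The Ada window was 67.2% G or C with 14 CpG pairs, a G and C share above that of 86.5% of 32851 mouse promoter windows, whose median was 52.4%. The Slc28a2 window was 45.2% G or C with 0 CpG pairs, and the Slc28a3 window 53.6% with 8. CACCC was found in all 3 of these windows and in 52.0% of all windows, while TTTATG (10.8% of all windows) and AGATAA (9.99%) were found in the Slc28a2 window of these 3. The letters CAAAGTCCA (HNF4), TGANTCA (AP-1) and TGACGTCA (CREB) were searched as well and were not in these windows. Ada and Slc28a2, which share a place in the tissue here, therefore did not share a base composition in these windows. RefSeq windows matched 7 of the 8 genes. The window of Nt5e had 72.0% G or C and that of Enpp3 36.8%. Both lie inside the annotated gene, in sequence annotated as transcribed, so they are not printed and the comparison does not rest on them.

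Of the ectoenzymes, Nt5e (ENSMUSG00000032420, chr9:88327197-88372092, plus strand, GRCm38) was almost silent until the upper villus. In the adip fl/fl library its level was 15.4 CPM at the villus bottom, 11.2 in mid-villus barcodes, 41.5 in those between mid-villus and tip and 1178 at the tip. In the adip fl/fl-Villi-Cre library the levels were 15.2, 17.5, 54.1 and 1141 CPM. The tip exceeded the bottom 76.5-fold (61.7 to 96.2) and 74.9-fold (64.4 to 87.6), while mid-villus and bottom differed by no more than counting error in both libraries. Nt5e was 4th of 5960 measured genes in this ratio, ranked by the smaller of the libraries' folds. Within the tip it went on climbing: 84.2, 1178 and 2862 CPM in clusters 0, 1 and 3 of adip fl/fl and 70.2, 776 and 2489 CPM in those of adip fl/fl-Villi-Cre.

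Enpp3 (ENSMUSG00000019989, chr10:24772406-24842823, minus strand) began its rise lower on the villus. Its levels from bottom to tip were 15.4, 38.0, 311 and 873 CPM in adip fl/fl and 16.9, 37.6, 378 and 952 CPM in adip fl/fl-Villi-Cre. The fold from bottom to tip was 56.7 (45.7 to 71.4) and 56.3 (48.7 to 65.3). Unlike Nt5e it was already 2.47-fold (1.92 to 3.21) and 2.22-fold (1.87 to 2.64) higher in mid-villus than in bottom barcodes. Counted as UMIs per barcode, Enpp3 went only from 0.372 (0.296 to 0.46) to 0.493 (0.431 to 0.56) in adip fl/fl. In adip fl/fl-Villi-Cre it went from 0.435 (0.376 to 0.501) to 0.493 (0.449 to 0.54). The separate intervals overlapped in both libraries, which does not show that the levels were equal. No interval of the mid-villus to bottom ratio was computed on this scale. Between clusters 1 and 3 it did not climb further, with 1168 and 1130 CPM in adip fl/fl and 1079 and 1063 CPM in adip fl/fl-Villi-Cre, differences within counting error, although on the finer axis below the adip fl/fl-Villi-Cre library was highest in the last bin.

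Ada (ENSMUSG00000017697, chr2:163726584-163750239, minus strand), the deaminase that removes adenosine, was the most abundant of the 8 transcripts at the tip by UMIs. Its levels from bottom to tip were 37.0, 40.2, 312 and 3891 CPM in adip fl/fl and 70.0, 112, 591 and 4754 CPM in adip fl/fl-Villi-Cre. The bottom-to-tip folds were 105 (91.5 to 121) and 68.0 (63.3 to 73.0). Cluster 3 held 7853 and 8235 CPM, which means that about that many of every 1000000 transcripts counted there were Ada. This was 1.67-fold (1.61 to 1.73) and 1.82-fold (1.78 to 1.86) above cluster 1.

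The nucleoside transporters occupied different places. Slc28a2 (ENSMUSG00000027219, chr2:122426477-122461137, plus strand), the sodium-coupled carrier that prefers purine nucleosides, followed Ada, with 19.4, 14.7, 144 and 1742 CPM from bottom to tip in adip fl/fl and 29.5, 38.1, 170 and 1779 CPM in adip fl/fl-Villi-Cre. The tip exceeded the bottom 89.7-fold (74.0 to 110) and 60.3-fold (54.1 to 67.5). Its annotated neighbour Slc28a2b reached 1.55 and 2.24 CPM at the tip. Slc28a3 (ENSMUSG00000021553, chr13:58545399-58610877, minus strand), the carrier with a broad choice of nucleosides, ran the other way, with 39.0, 14.1, 3.23 and 0.309 CPM and 30.4, 8.21, 1.23 and 0.395 CPM. Only 1 and 3 UMIs of Slc28a3 were counted at the tip, where the bottom was 126-fold (22.4 to 5010) and 76.9-fold (26.1 to 375) higher. Slc29a1 (ENSMUSG00000023942, chr17:45585200-45599606, minus strand) was nearly missing from absorptive barcodes: 0.183, 0, 0 and 0 CPM in adip fl/fl and 0.443, 0.161, 0 and 0.264 CPM in adip fl/fl-Villi-Cre.

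The final steps of breakdown peaked lower than the tip. Xdh (ENSMUSG00000024066, chr17:73883895-73950196, minus strand) had 227, 608, 971 and 679 CPM from bottom to tip in adip fl/fl. In adip fl/fl-Villi-Cre it had 221, 612, 873 and 596 CPM, so its highest class was the one between mid-villus and tip. By cluster the place was less clear, since mid-villus cluster 7 held 837 and 933 CPM and tip cluster 0 held 966 and 927 CPM. The tip exceeded the bottom 2.99-fold (2.78 to 3.20) and 2.70-fold (2.57 to 2.84), but inside the tip Xdh fell as Ada and Nt5e climbed, from 966 through 611 to 318 CPM and from 927 through 604 to 316 CPM in clusters 0, 1 and 3. Pnp (ENSMUSG00000115338, chr14:50931082-50965237, plus strand) was higher at the bottom (290 and 279 CPM) and in mid-villus (322 and 303 CPM) than at the tip (171 and 194 CPM), with bottom-to-tip ratios of 1.69 and 1.44. Its annotated span contains Pnp2 (chr14:50955992-50964749), so how reads were divided between the copies is uncertain. The copies summed gave 447, 555 and 329 CPM at bottom, mid-villus and tip in adip fl/fl and 425, 530 and 355 CPM in adip fl/fl-Villi-Cre.

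Of the 8 genes, 5 (Nt5e, Enpp3, Ada, Slc28a2 and Xdh) were at least 2-fold higher at the tip than at the bottom in both libraries, against 11.6% of the 5960 genes that reached 20 CPM in the higher class and 20 UMIs. Nt5e, Ada, Slc28a2 and Enpp3 were 4 of the 17 genes (0.285%) at least 50-fold higher in both. Because the 8 genes were chosen with earlier results of these data known, these shares give no test of the set. Slc28a3 was among the 43.1% at least 2-fold lower, Pnp lay between, and Slc29a1 was too low to be measured in this contrast. The set was named for the villus tip, and 4 of its members were highest there. Of the others, Xdh was highest below the tip, Pnp in mid-villus, Slc28a3 in crypt and villus bottom, and Slc29a1 outside the absorptive line.

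A finer axis gave a like picture, except for Pnp and for the lower villus levels of Nt5e and Slc28a2. Absorptive barcodes of both libraries were ranked by the share of tip landmark genes among tip and bottom landmark UMIs and cut into 10 bins. Ada rose at each of the 9 steps in both libraries, from 20.6 to 7750.0 CPM and from 39.0 to 7830.0 CPM. In the adip fl/fl library Nt5e stood at 55.7 CPM in bin 5, when Ada had reached 252 CPM, and climbed to 3167 CPM in bin 10. In the adip fl/fl-Villi-Cre library the same bins held 49.1 and 2316 CPM of Nt5e. Between bins 1 and 4 Nt5e already rose from 7.14 to 34.7 CPM and from 6.54 to 36.2 CPM. Slc28a2 rose there from 7.43 to 28.9 CPM and from 13.6 to 98.35 CPM. By class, neither gene rose from bottom to mid-villus in adip fl/fl. Enpp3 was highest in bin 9 (1273 CPM) and bin 10 (1130.0 CPM), and Xdh in bin 5 (933 CPM) and bin 4 (879 CPM), before it fell to 431 and 387 CPM in bin 10. Slc28a3 dropped from 34.3 and 25.6 CPM in bin 1 to 0 UMIs in bin 10. Pnp, highest in mid-villus by class, was highest at the bottom end of this axis, in bin 2 (315 CPM) and bin 1 (305 CPM).

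**Figure D1:**
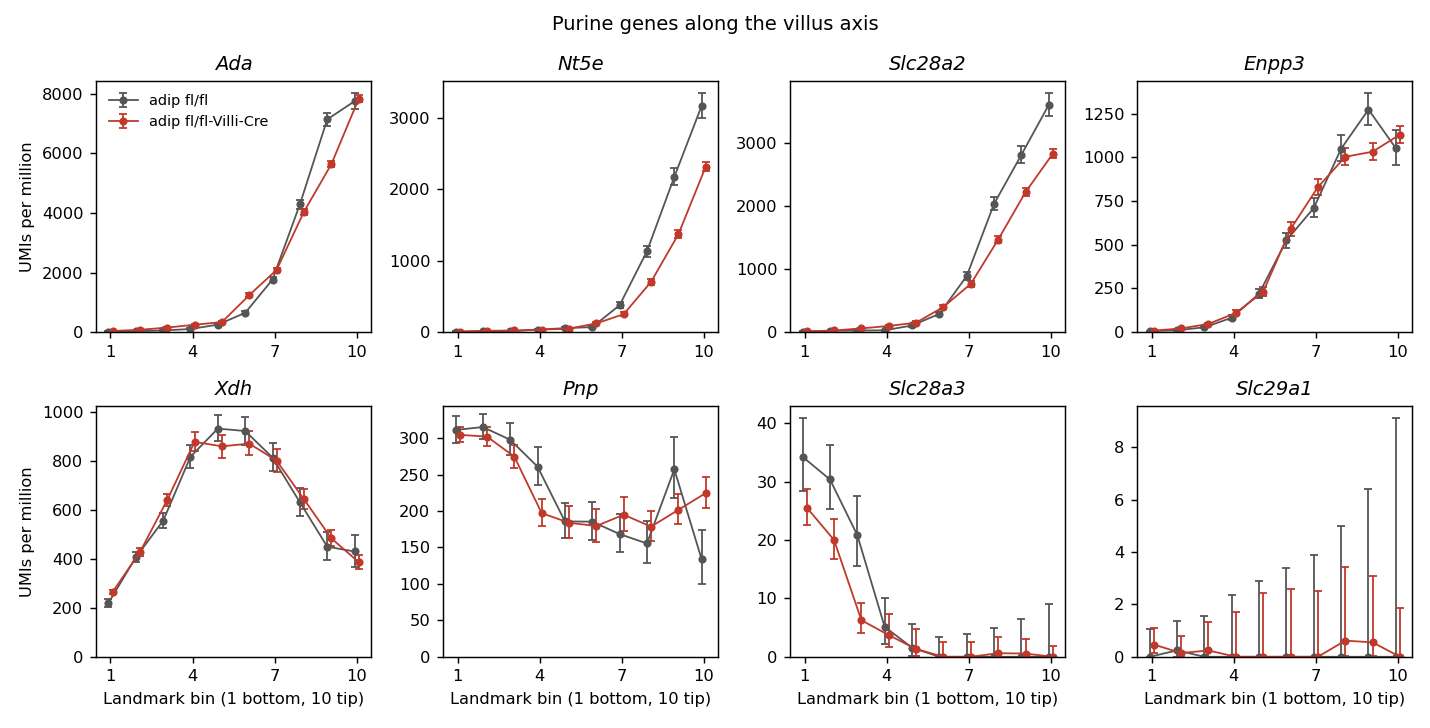
CPM (y axis, a separate linear scale in each panel) of the 8 genes in 10 bins of absorptive barcodes from villus bottom (1) to tip (10), for adip fl/fl (grey) and adip fl/fl-Villi-Cre (red), with 95% counting intervals as bars. Ada, Nt5e and Slc28a2 are highest in bin 10 of both libraries, Xdh in bin 5 or 4, and Slc28a3 in bin 1.

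The scale decides how large these contrasts are, because villus bottom barcodes held far more RNA (medians of 21587 and 20436 UMIs) than tip barcodes (3480 and 3411). Counted as UMIs per barcode, Ada went from 0.894 to 14.4 (16.1-fold) and from 1.80 to 17.7 (9.82-fold). Nt5e went from 0.372 to 4.36 (11.7-fold) and from 0.392 to 4.24 (10.8-fold). Slc28a2 rose 13.7-fold and 8.71-fold and Enpp3 8.69-fold and 8.13-fold on this scale, so these 4 genes were higher at the tip by either measure. Xdh changed direction, from 5.49 to 2.51 and from 5.67 to 2.21 UMIs per barcode, 2.19-fold and 2.56-fold lower at the tip. Its highest class on this scale was mid-villus, with 7.87 and 8.03 UMIs per barcode against 4.15 and 3.88 between mid-villus and tip. Pnp went from 6.99 to 0.633 and from 7.18 to 0.720 UMIs per barcode. Whether a tip barcode holds less RNA because the cell does, or because RNA was lost from it, cannot be told apart here.

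**Figure D2:**
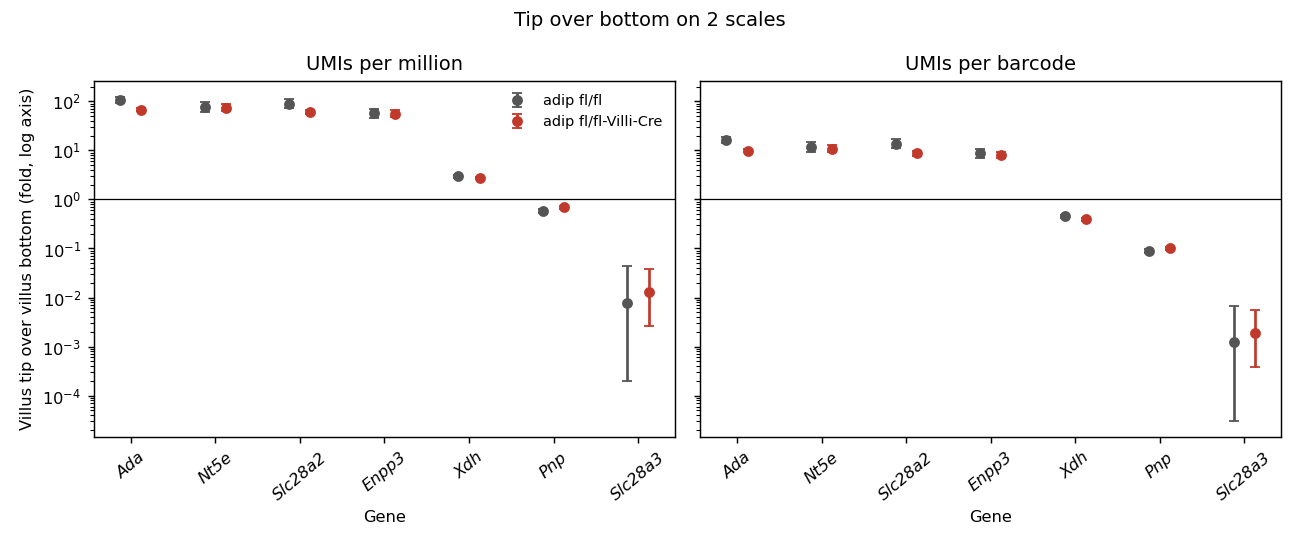
Fold between villus tip and villus bottom (log axis) for 7 of the genes, computed from CPM (left) and from UMIs per barcode (right), with 95% counting intervals, adip fl/fl in grey and adip fl/fl-Villi-Cre in red. Ada, Nt5e, Slc28a2 and Enpp3 stay above 1 in both panels, and Xdh moves from 2.99 and 2.70 to 0.457 and 0.390.

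At the other end of the axis Slc28a3 was high in a part of the crypt and at the villus bottom. Crypt barcodes (86 and 281) were split into 4 subclusters, all of which carried 12 of 12 cycling markers. Subcluster c0 (43 and 104 barcodes), which carried 12 of 12 cycling markers, 3 villus bottom markers and 1 of 11 stem markers, held 69.4 and 37.1 CPM of Slc28a3, its highest levels among clusters with at least 20 barcodes in both libraries. This was 1.78-fold (1.38 to 2.28) the level of the villus bottom in adip fl/fl, but 1.22-fold (0.970 to 1.53), within counting error, in adip fl/fl-Villi-Cre. Subcluster c2, also with 12 of 12 cycling markers, had 44.9 CPM (22 UMIs) in its 65 barcodes of adip fl/fl-Villi-Cre, and 1 UMI in its 4 barcodes of adip fl/fl. Subcluster c1 (28 and 86 barcodes) carried 11 of 11 stem markers and also 7 of 9 Paneth cell markers. The muscle and fibroblast genes Acta2, Myh11 and Col1a2 were among its leading genes. It held 6.46 CPM (3 UMIs) and 5.09 CPM (9 UMIs) of Slc28a3, 10.7-fold (3.56 to 53.0) and 7.29-fold (3.69 to 16.4) less than c0. Slc29a1 was arranged in the opposite way, with 30.2 and 35.6 CPM in c1 and 2.24 (3 UMIs) and 3.64 CPM in c0. In subcluster c3 (11 and 26 barcodes), with 9 of 11 stem markers, Slc29a1 was at 5.82 CPM (3 UMIs) and 15.0 CPM (15 UMIs). The part of the muscle and fibroblast RNA in the value of c1 was not tested. Slc28a3 had a UMI in 7 of 11 and 10 of 26 barcodes of c3, against 3 of 28 and 8 of 86 of c1. Barcodes of c3 also held more UMIs, with a median of 33525 against 15363.5 in c1. Slc28a3 and Slc29a1 thus differed in opposite directions between c0 and c1 in both libraries.

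Several of the genes were also found outside the absorptive line. A droplet of any cell can hold free RNA from enterocytes, so each level was set beside 14 genes that enterocytes make, as a percentage of the absorptive level. Other epithelial cells make some of them too, so in these clusters their range is a comparison and not a level of free RNA: Fabp1 in the tuft-like cluster was at 128% and 170.3%, and Vil1, a protein of microvilli in epithelial cells generally, was the highest in goblet-like barcodes. In the enteroendocrine-like cluster (55 and 57 barcodes) Nt5e stood at 425 and 279 CPM, 175% (149 to 203) and 103% (85.7 to 122) of the absorptive level, where the enterocyte genes reached at most 31.8% and 56.4%. Slc29a1 was highest there, at 96.9 and 115 CPM. The goblet-like cluster (225 and 411 barcodes) carried 7 of 7 goblet markers and also 7 of 9 Paneth cell markers. Enpp3 stood there at 189 and 206 CPM, 84.4% (75.5 to 94.1) and 78.8% (73.1 to 84.9), where Vil1 was at 42.1% and 53.2%. Nt5e in the same goblet-like barcodes was 15.6% and 23.8%, within the range of the enterocyte genes in adip fl/fl (14.8% to 42.1%) and below it in adip fl/fl-Villi-Cre (27.7% to 53.2%). In the tuft-like cluster Nt5e was scarce, with 3.24 CPM (2 UMIs) and 15.7 CPM (11 UMIs).

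**Figure D3:**
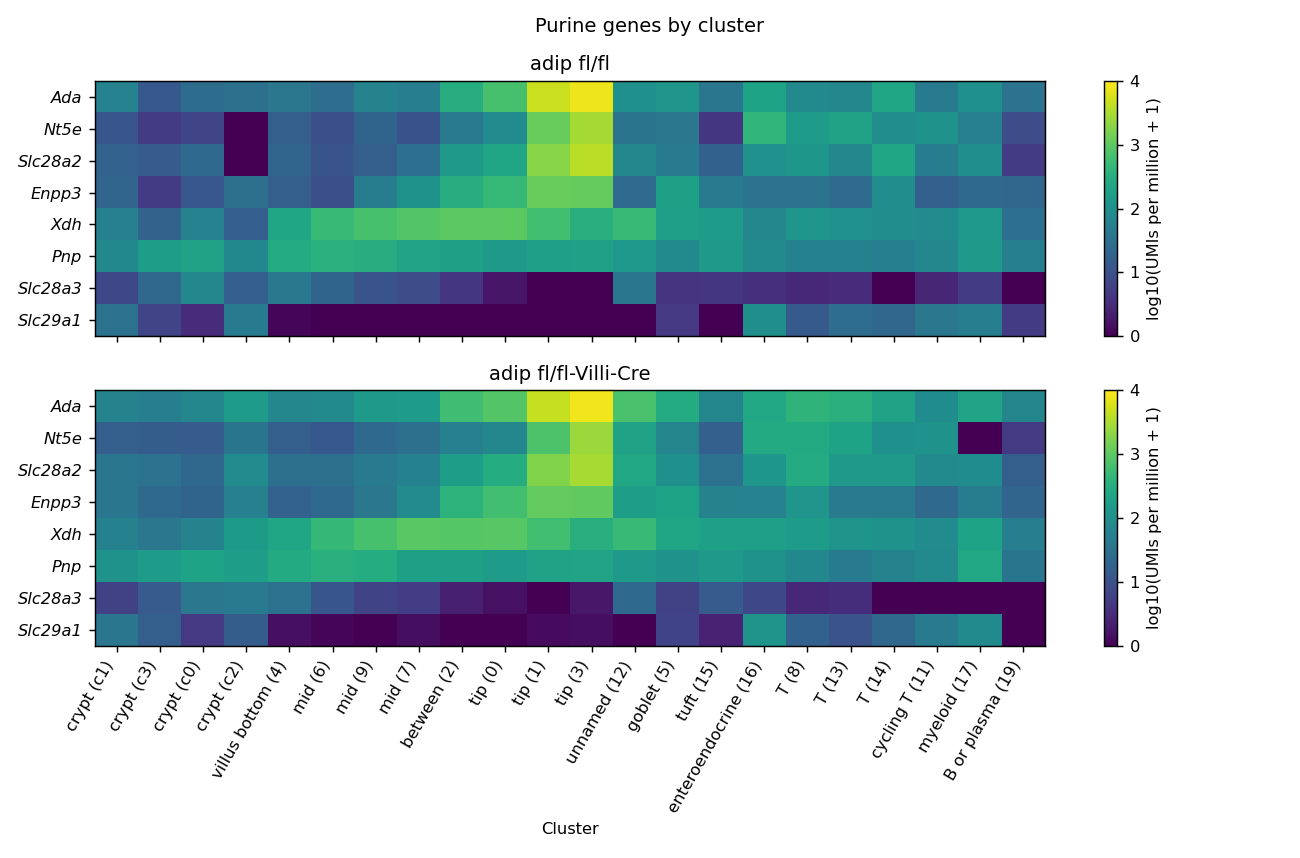
Colour gives log10(CPM + 1) of the 8 genes (rows) in each cluster (columns, ordered from crypt through villus bottom to tip, then other cell classes), for adip fl/fl (top) and adip fl/fl-Villi-Cre (bottom). The bright block of Ada, Nt5e, Slc28a2 and Enpp3 lies in tip clusters 1 and 3, and Slc29a1 has its highest value in the enteroendocrine-like cluster, at 96.9 and 115 CPM.

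T cell-like barcodes (364 and 441) were part of the preparation, and their largest cluster carried 11 of 12 T cell markers. Nt5e there was 164 and 219 CPM, 67.4% (59.6 to 76.0) and 80.5% (73.0 to 88.7) of its absorptive level. The 14 enterocyte genes lay between 2.89% (Sis) and 10.3% (Apoa4) in the adip fl/fl library and between 10.8% (Fabp1) and 26.7% (Apoa4) in the adip fl/fl-Villi-Cre library, so more enterocyte RNA was in the T cell-like barcodes of the latter. Slc28a2 stood at 129 and 223 CPM, 35.2% (30.7 to 40.2) and 51.1% (46.4 to 56.2). Slc29a1, nearly missing from enterocytes, had 17.2 CPM (30 UMIs) and 16.1 CPM (32 UMIs). Ada was at 11.9% (10.2 to 13.9) and 28.4% (26.3 to 30.7), close to the upper edge of the enterocyte genes in each library. Nt5e, Slc28a2, Enpp3 and Slc29a1 lay above all 14 enterocyte genes in both libraries by the lower limit of the interval. The absorptive level, however, averages the whole villus. In adip fl/fl it was 243, 367 and 224 CPM for Nt5e, Slc28a2 and Enpp3, against 1178, 1742 and 873 CPM at the tip. Tip RNA in T cell-like barcodes thus raises these percentages more than those of genes spread along the villus. The criterion cannot separate such RNA from RNA made by T cells. Of 7083 genes that reached 20 CPM and 20 UMIs in both libraries, 80.0% met this criterion. Slc29a1 and Slc28a3 were too low for that background. Of the members inside it, Nt5e, Slc28a2 and Enpp3 met the criterion and Ada, Xdh and Pnp did not, a smaller share than 80.0%.

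The T cell-like barcodes with the least enterocyte RNA, 182 and 220 in number, were chosen by the summed share of the 14 enterocyte genes. Those genes were therefore low there by construction, between 0.983% and 2.55% and between 1.16% and 4.04%, and the band gives no test of the 8 genes. Nt5e had 164 and 162 CPM in these barcodes, and Slc28a2 102 and 96.5 CPM. Enpp3 was at 6.25 CPM (6 UMIs) and 14.2 CPM (14 UMIs), 2.79% and 5.45% of the absorptive level. Ada was 34.4 and 73.2 CPM, 4.19% (2.88 to 5.89) and 6.22% (4.86 to 7.83), Pnp 57.3 and 53.9 CPM and Xdh 76.0 and 49.8 CPM. Nt5e was at 67.2% and 59.4% of its absorptive level, Slc28a2 at 27.8% and 22.1%, Pnp at 21.5% and 20.6%, and Xdh at 14.2% and 10.0%. By the lower limit of their intervals Ada, Xdh and Pnp, like Nt5e, Slc28a2 and Slc29a1, lay above all 14 enterocyte genes in both libraries, and Enpp3 did not. Since the barcodes were chosen for low values of those 14 genes, this position follows in part from the choice. The share of all genes that met it in these barcodes was not computed, so nothing is concluded from it. Counted against each other, T cell-like barcodes held 168 and 65.5 Nt5e UMIs per 100 Ada UMIs, and villus tip-like barcodes 30.3 and 24.0.

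Nt5e was lowest in the same T cell-like cluster of both libraries, and Slc28a2 was not. Against 100 Ada UMIs, Nt5e had 204 and 70.4 UMIs in cluster 8 and 294 and 61.1 in cluster 13. Cluster 14 was lowest in both libraries, with 22 and 49 Nt5e UMIs beside 55 and 97 Ada UMIs. Slc28a2 had 131, 69.6 and 234 CPM in clusters 8, 13 and 14 of adip fl/fl and 292, 143 and 140 CPM in those of adip fl/fl-Villi-Cre, so its highest cluster differed between the libraries. Cycling T-like barcodes (107 and 114) held 112 and 107 CPM of Nt5e and 37.5 and 44.6 CPM of Slc29a1, the latter more than other T cell-like barcodes. After each barcode was thinned to 2000 UMIs, 25.4% (20.9 to 30.4) of 342 and 27.2% (22.9 to 31.9) of 393 T cell-like barcodes had an Nt5e UMI, against 46.7% and 43.1% without thinning. In tuft-like barcodes, where the gene was scarce, thinning left 1.43% (1 of 70) and 3.28% (2 of 61).

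**Figure D4:**
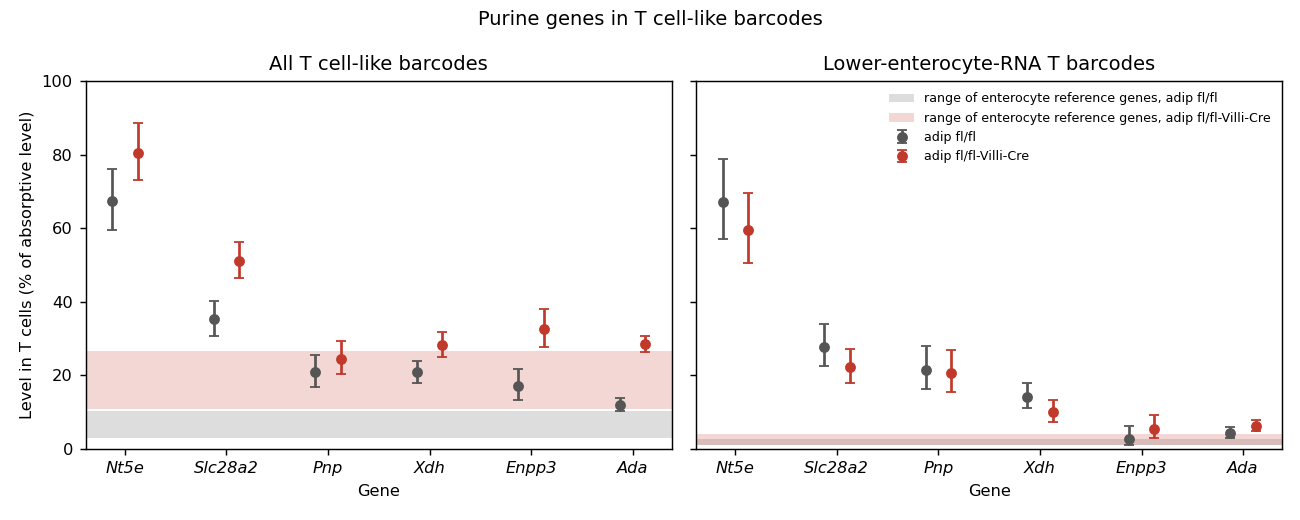
Level in T cell-like barcodes as a percentage of the level in absorptive barcodes (y axis) for 6 genes, in all T cell-like barcodes (left) and those with the least enterocyte RNA (right), with 95% counting intervals; shaded bands span the 14 enterocyte genes in each library. Nt5e is at 67.4% and 80.5% (left) and 67.2% and 59.4% (right), and Enpp3 and Ada are lower on the right; the bands are lower there because the barcodes were chosen for it.

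Summed over the whole tip the libraries were close, but Nt5e was lower in adip fl/fl-Villi-Cre in cluster 1 and in the highest bins. In all tip-like barcodes the adip fl/fl-Villi-Cre level relative to adip fl/fl was 1.22 (1.20 to 1.25) for Ada, 0.968 (0.932 to 1.01) for Nt5e, 1.02 (0.990 to 1.05) for Slc28a2, 1.09 (1.04 to 1.14) for Enpp3, 0.878 (0.834 to 0.925) for Xdh and 1.13 (1.03 to 1.25) for Pnp. None of these 6 genes passed 1.5-fold, where 4.97% of 4229 genes did. The libraries filled the tip clusters unequally: cluster 3 held 197 and 561 barcodes, cluster 1 held 247 and 829, and cluster 0 held 431 and 653. Within cluster 3 the ratios were 1.05 for Ada, 0.870 for Nt5e and 0.795 for Slc28a2. Nt5e was 0.835 (0.646 to 1.08) in cluster 0 and 0.659 (0.615 to 0.706) in cluster 1, the latter the one value of the 6 genes there past 1.5-fold, where 10.7% of genes were. After thinning to 2000 UMIs, 63.1% (56.6 to 69.2) and 43.4% (39.9 to 47.0) of cluster 1 barcodes had an Nt5e UMI, with 67.6% and 52.1% without thinning. On the axis of 10 bins, compared between the libraries after the values were seen, the Nt5e ratio was 0.622 (0.568 to 0.681) in bin 8, 0.631 (0.589 to 0.676) in bin 9 and 0.731 (0.687 to 0.779) in bin 10, more than 1.5 times below the summed value of 0.968 in bins 8 and 9. In the same bins Slc28a2 was at 0.721, 0.789 and 0.786, and Ada at 0.943, 0.789 and 1.01. The lower Nt5e did not hold along the whole axis. Its ratio was 0.668 (0.576 to 0.7745) in bin 7, but 1.725 (1.31 to 2.29) in bin 6 and 2.18 (1.40 to 3.5) in bin 3. In bins 1, 2, 4 and 5 the interval of the Nt5e ratio included 1.

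Below the tip, Ada and Slc28a2 were higher in the adip fl/fl-Villi-Cre library. Ada was 1.89-fold (1.62 to 2.22) higher in bottom barcodes and 2.78-fold (2.43 to 3.20) in mid-villus barcodes, and Slc28a2 1.52-fold (1.22 to 1.91) and 2.59-fold (2.06 to 3.29). At least 1.5-fold higher in this library were 0.683% of genes in bottom and 0.985% in mid-villus barcodes, so Ada and Slc28a2 were among few. Nt5e had ratios of 0.990 (0.758 to 1.30) in bottom and 1.56 (1.18 to 2.08) in mid-villus barcodes. Enpp3 had ratios of 1.10 (0.846 to 1.44) and 0.988 (0.842 to 1.16) in these classes. All of these intervals but that of Nt5e in mid-villus include 1. On the finer axis, however, the Enpp3 ratio was above 1 in bins 2 to 4. It was 1.966 (1.395 to 2.821) in bin 2, 1.708 (1.286 to 2.294) in bin 3 and 1.337 (1.074 to 1.671) in bin 4. In bins 1 and 5 the interval of the Enpp3 ratio included 1. The class and bin comparisons of Enpp3 below the tip thus differed. Outside the absorptive line, in T cell-like barcodes Ada was 3.42-fold, Slc28a2 1.73-fold and Enpp3 2.22-fold higher, against 8.88% of genes at least 1.5-fold higher, and in goblet-like barcodes Ada was 2.33-fold (2.02 to 2.69) higher. Xdh and Pnp, which are not restricted to the tip, had ratios between 0.942 and 1.01 in bottom and mid-villus barcodes.

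Most other tip-restricted genes outside the 8 moved the same way as Ada and Slc28a2 in these cells. Of the 17 genes at least 50-fold higher at the tip than at the bottom, 13 were outside the 8 purine genes. In bottom barcodes 10 of them had at least 20 UMIs, and 9 of the 10 were higher in the adip fl/fl-Villi-Cre library, with a median of 1.66-fold. In mid-villus barcodes 9 of 10 were higher (median 1.75-fold), for example Ly6m 4.94-fold and Gprc5a 3.02-fold, and in T cell-like barcodes 10 of 11 (median 2.43-fold). Over all measured genes the median log2 ratio was 0.00873 in bottom, 0.0051 in mid-villus and -0.0635 in T cell-like barcodes. Nt5e and Enpp3, also among the 17, had ratios whose intervals included 1 in bottom barcodes, and Enpp3 in mid-villus barcodes too. The adip fl/fl-Villi-Cre library also had the larger share of tip-like barcodes, 2043 of 5555 against 875 of 3069. The part that free or co-captured tip RNA plays in the higher Ada and Slc28a2 of bottom, mid-villus and T cell-like barcodes was not tested.

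Slc28a3 was lower in the adip fl/fl-Villi-Cre library in the absorptive and crypt cells where it was abundant, with ratios of 0.778 (0.654 to 0.928) at the villus bottom, 0.584 (0.434 to 0.788) in mid-villus and 0.535 (0.3998 to 0.7161) in crypt subcluster c0. Over all kept barcodes its ratio was 0.769 (0.680 to 0.870), and that of Ada 1.57 (1.54 to 1.60), a figure that includes the difference in the share of tip-like barcodes. At least 1.5-fold higher over all kept barcodes were 0.617% of genes.

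**Figure D5:**
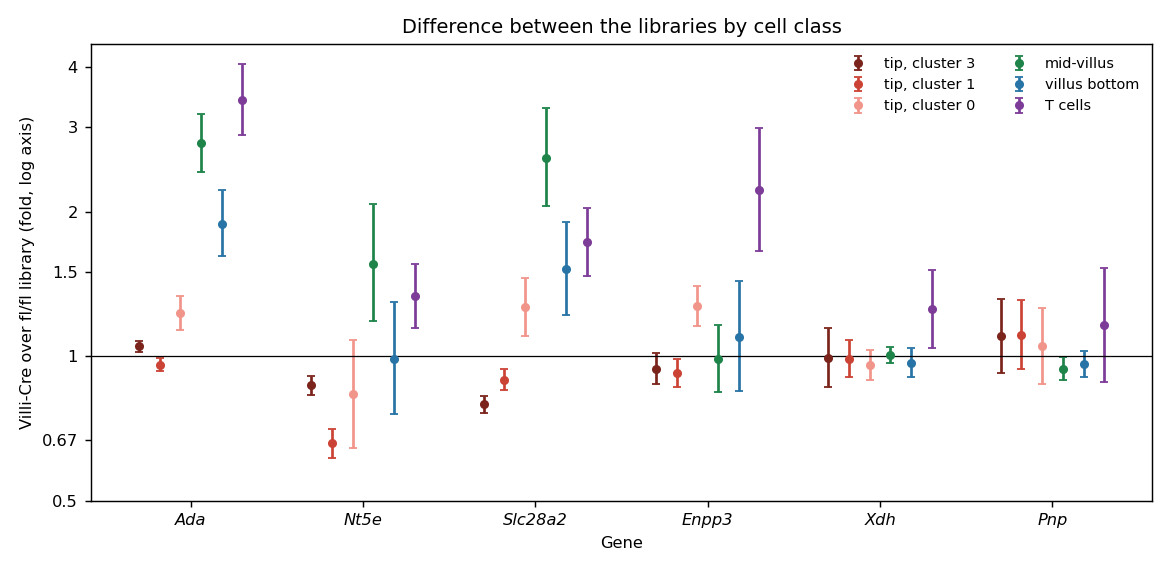
Fold of the adip fl/fl-Villi-Cre library over the adip fl/fl library (log axis) for 6 genes in the 3 tip clusters, mid-villus, villus bottom and T cell-like barcodes (colours), with 95% counting intervals. Ada lies near 1 in tip clusters 1 and 3 and at 1.89, 2.78 and 3.42 in villus bottom, mid-villus and T cell-like barcodes.

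Over 42 points, each a cluster in a library, the log2 level of Ada was most like those of Clca4a (Pearson r = 0.975), Ly6m (0.960) and Ifrd1 (0.952), among 7914 genes. Slc28a2 had the same 3 neighbours (0.934, 0.929 and 0.928), and Ada and Slc28a2 themselves reached 0.949. Enpp3 was nearest to Pmp22 (0.940). Nt5e had weaker and other neighbours, Foxo3 (0.867), Mapk8ip3 (0.817) and Fbxo32 (0.798), and reached 0.774 with Ada. Xdh went with the brush border hydrolases Ggt1 (0.973) and Treh (0.972), Pnp with Alas1 (0.913), the first enzyme of haem synthesis, Slc28a3 with Aadac (0.901), and Slc29a1 with Mthfd2 (0.884), a mitochondrial folate enzyme. The points share 2 libraries, and Clca4a and Pmp22 were among the markers that named the tip, so these values describe likeness and carry no test.

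The wider purine pathway was followed in lists written by hand. Among all 5960 genes 11.6% were at least 2-fold higher and 43.1% at least 2-fold lower at the tip in both libraries, with a median of -0.83 on the log2 scale of tip over bottom, and these shares are the background of the counts that follow. Of 17 ectonucleotidases and phosphatases 6 were measured, and 4 were at least 2-fold higher at the tip in both libraries and 1 lower, with a median of 2.45: beside Nt5e and Enpp3 these were Entpd8, an ATP and ADP hydrolase (6.91-fold and 7.73-fold), and the intestinal alkaline phosphatase Alpi (3.75-fold and 4.42-fold), while Entpd5 was 4.14-fold and 3.41-fold lower. By UMIs per barcode Entpd8 was 1.06-fold (0.943 to 1.19) and 1.12-fold (1.04 to 1.21) the bottom value at the tip, and Alpi was 1.74-fold and 1.57-fold lower there. Of 18 breakdown genes 9 were measured, 3 higher (Ada, Xdh and Nt5c2) and 2 lower (Urah and Nt5c), with a median of 0.07; Ada and Xdh are among the 8 genes described here, and lower genes were a smaller share than among all genes. Nt5c2, a cytosolic nucleotidase, was 18.6-fold and 22.1-fold higher at the tip, at 81.6 and 88.1 CPM, and 2.84-fold and 3.20-fold higher by UMIs per barcode.

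Of 7 listed salvage genes 4 were measured, 0 were higher and 3 were at least 2-fold lower at the tip in both libraries, with a median of -2.63 against -0.83 for all genes, of which 43.1% were lower. Aprt, which recycles adenine, had 567 and 555 CPM at the bottom and 106 and 104 CPM at the tip. Adenosine kinase, Adk, which returns adenosine to AMP, had 92.0 and 92.1 CPM at the bottom and 12.7 and 8.96 CPM at the tip, 7.26-fold and 10.3-fold less. Ada and Adk, which use the same adenosine, thus ran in opposite directions along the villus. Hprt, which recycles hypoxanthine and guanine, was 2.21-fold and 1.86-fold lower.

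Among 15 nucleoside and urate transporters 5 were measured, 1 higher (Slc28a2) and 2 lower (Slc28a3 and Slc2a9), the latter a share like the 43.1% of all genes. Slc2a9, a urate carrier, was 4.62-fold and 3.90-fold lower at the tip, and Slc17a4, another organic anion carrier, 3.09-fold and 1.53-fold higher, but 2.11-fold and 4.51-fold lower by UMIs per barcode. Of 9 receptors and binding proteins 4 were measured: the nucleotide receptor P2ry2 was 13.7-fold and 9.22-fold higher at the tip (2.09-fold and 1.33-fold by UMIs per barcode), and P2ry1 was lower. Of 14 genes of de novo purine synthesis only Adss was measured in this contrast, at 1.12-fold and 1.14-fold.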

How the data were processed

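Mouse small intestinal epithelium of 2 genotypes was profiled in droplets, 1 library each. UMI counts came from Cell Ranger (header version 7.1.0; bcl2fastq 5.0.1 and mm10 in the submitters' processing notes), and the authors deposited them as raw counts per gene and barcode, without normalization. The 8 genes, lists and markers were chosen with earlier results of these data known. Kept barcodes (over 500 genes, mitochondrial share below 25%) were processed in Seurat 5.3.0 (R 4.3.3) with LogNormalize, 2000 variable genes, 20 principal components and Louvain resolution 0.8 (crypt 0.4), leaving the 8 genes and pathway lists out of the variable genes.

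Cluster names needed 3 markers that were raised 2-fold or more over the other barcodes and had 10 UMIs or more. That rule was set after the clusters were seen. Named genes were the 8 members, their 3 nearest genes by correlation, and at most 4 per pathway list by fold; further genes were picked with their values in view. Levels have exact Poisson and shares exact Clopper-Pearson 95% intervals (scipy 1.17.1, pandas 2.3.3, numpy 2.4.6, Python 3.11.15), which cover counting error only. The fold calculation was tested on simulated counts. No p-value was computed. Scrublet (scanpy 1.11.5), run at an expected doublet rate of 8%, called 3 and 2 barcodes. Doublets were not removed, and so few calls do not show that they were rare. Coordinates are from GENCODE M21 (GRCm38) and promoters from RefSeq (GRCm38.p6). Plots were drawn with matplotlib 3.10.9.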

Additional observations from a re-analysis of the deposited data

Results flagged for a closer look

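The barcodes that exceeded the mitochondrial limit, 4670 and 4263 of them, took no part in the comparisons above, and all 8 genes were counted in them. Over both libraries together their levels were 1142.0 CPM for Ada, 272 for Nt5e, 488 for Slc28a2, 417 for Enpp3, 754 for Xdh, 107 for Pnp, 3.69 for Slc28a3 and 0.275 for Slc29a1 (7 UMIs). When mitochondrial UMIs were left out of the total, Ada stood at 1228 and 2300.0 CPM in the removed barcodes and at 933 and 1329 CPM in the kept absorptive ones, and Enpp3 at 540 and 738 CPM against 255 and 295 CPM. Pnp was lower in the removed barcodes, at 149 and 179 CPM against 303 and 296 CPM, and so was Slc28a3, at 6.51 and 4.65 CPM against 20.9 and 15.1 CPM. Xdh, which was highest below the tip, was higher in the removed barcodes, at 1231 and 1057 CPM against 611 and 561 CPM.

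For Xdh and Pnp the ratio of the adip fl/fl-Villi-Cre to the adip fl/fl library lay on opposite sides of 1 in different classes, with counting intervals that excluded 1, and the difference was not tested. Xdh had a ratio of 1.25 in T cell-like and 0.878 in tip-like barcodes. Pnp had a ratio of 1.13 in tip-like and 0.942 in mid-villus barcodes.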

How the results depend on the processing

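All alternatives but the mean of per-cell CPM changed 1 choice at a time. The choices were filters on genes and mitochondrial UMIs, clustering settings, high Scrublet scores, the denominator, the weight of cells, the variable genes, the position, the depth and the fold that counts. UMIs per barcode and each tip cluster alone were added after the data were seen. The number of genes at least 2-fold higher at the tip was 4 or 5 in each of them. The number past 1.5-fold between the libraries at the tip was 0 with these exceptions. It was 5 at a mitochondrial limit of 10%, which left 27 and 62 tip-like barcodes. It was 1 in cluster 1 alone and 1 with the mean of per-cell CPM. The latter run set no minimum of UMIs, so genes almost absent from the tip could count. Slc29a1 had 0 CPM there in adip fl/fl and 0.2635 CPM in adip fl/fl-Villi-Cre. No difference between the libraries is concluded from that count. The number in T cell-like barcodes above the enterocyte genes rose from 4 to 7 with the mean of per-cell CPM. That run compared the ratio itself, not the lower limit of its interval, so the criterion changed with the weighting. By the ratio itself Ada (11.9% and 28.4%) and Xdh (20.8% and 28.15%) already exceeded the highest enterocyte gene (10.3% and 26.7%) in summed counts. The part of the rise due to weighting is therefore not known.

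At the 10% limit the level in T cell-like barcodes exceeded the absorptive level for Nt5e (7.99-fold and 4.85-fold), Slc28a2 (4.25-fold and 1.87-fold), and, in adip fl/fl, Ada (1.02-fold) and Enpp3 (1.19-fold), Pnp turned higher at the tip (1.47-fold and 1.32-fold) and its ratio between the libraries became 0.854; few tip-like barcodes remain at this limit. The ratio of Enpp3 between the libraries at the tip fell below 1 with 1000 genes (0.936), with the listed genes kept (0.972), by landmark score (0.916) and in clusters 1 (0.924) and 3 (0.941), and that of Ada by landmark score (0.916) and in cluster 1 (0.961); the cause was not tested. Xdh was lower at the tip by UMIs per barcode (0.457 and 0.390), where the larger totals of bottom barcodes enter. Of 527 recomputed values, 252 moved by less than the counting interval or, for counts of genes, by less than 1.5 times, 257 moved further without a change of direction and 18 changed direction. No paired analysis was possible because each genotype has 1 library and the labels carry no replicate numbers. Depth limits Slc29a1 and Slc28a3 at the tip, where at most 3 UMIs of each were counted in a library.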

Other observations

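Pyrimidine nucleosides share the carriers of purine nucleosides but use other enzymes. Of 11 listed genes 4 were measured between villus tip and bottom. Upp1, which splits uridine, was 2.43-fold and 2.18-fold higher at the tip, with 291 and 311 CPM there, but 2.69-fold and 3.18-fold lower by UMIs per barcode, and cytidine deaminase, Cda, was 2.45-fold and 2.52-fold lower, with 196 and 171 CPM at the tip and 480 and 432 CPM at the bottom. Dpp4, a brush border peptidase, was highest in mid-villus barcodes, at 943 and 1039 CPM, against 386 and 444 CPM at the tip.

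Cluster 12 (64 and 150 barcodes), led by Fgf15 and left unnamed, held 36.2 and 22.2 CPM of Slc28a3 together with 519 and 489 CPM of Xdh. Ada, Nt5e and Enpp3 in this cluster were 7.11-fold (4.99 to 10.5), 5.99-fold (3.23 to 12.3) and 7.31-fold (3.59 to 17.4) higher in the adip fl/fl-Villi-Cre library, larger ratios than those of the named classes given above. In adip fl/fl they rest on 33, 11 and 8 UMIs, found in 15, 3 and 7 of 64 barcodes. In adip fl/fl-Villi-Cre the UMIs lay in 77, 23 and 34 of 150 barcodes. The intervals do not cover the spread between barcodes, and the origin of these ratios was not tested.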
